A study of Mus musculus with 8 samples.

Results

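The difference between memory T follicular helper (Tfh) and memory T helper 1 (Th1) cells was measured in wild-type (WT) mice, on 4 of the 8 arrays of the series. The arrays were chosen by their titles alone, as 2 of WT Tfh cells and 2 of WT Th1 cells, and all annotated genes that passed a signal filter were compared. The cells were polyclonal CD4 T cells from spleen, taken at day 60 after infection with the Armstrong strain of lymphocytic choriomeningitis virus (LCMV), which mice clear as an acute infection. At least 10 mice were pooled for each array, and 100 ng of their total RNA went into biotin-labelled cRNA. The other 4 arrays held Tfh and Th1 cells of mice labelled Rictor-null (2 each), infected and sampled in the same way. Rictor is the defining subunit of mTOR complex 2. The Rictor-null arrays took no part in the WT difference itself, entered the estimate of spread between replicates, and are set beside the WT values near the end. The sources used here do not state strain, age, sex, the surface markers used for sorting, or how Rictor was deleted. The labels call the replicates biological, and p values measure the spread between pools, not between single mice.

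Tfh cells sit in B cell follicles and germinal centres, to which the chemokine receptor CXCR5 brings them, and there they help B cells through contact and the cytokine IL-21. The repressor BCL6 drives this fate. Th1 cells leave the lymphoid tissue, make interferon gamma under the control of T-bet (gene Tbx21), and activate macrophages and other effector cells. After an acute viral infection both lineages leave memory cells, in which much of the effector programme has waned.

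Values are array signals on a linear scale, one probe set per gene, for 11217 genes, with array medians between 35.7 and 37.7 over all 45037 probe sets. Differences are given as Tfh minus Th1 of log2(signal + 32), with the standard error (SE) of the limma fit, and a fold is that of signal + 32, which understates the fold of dim genes. A gene is called higher or lower in Tfh cells where its limma p, adjusted by Benjamini-Hochberg over all 11217 genes, was under 0.05. Every value has n = 2 arrays per group. No detection call came with the signals, so a signal near the array median may be background. The replicates correlated across genes with Pearson r of 0.995 to 0.999, and a typical gene had a replicate SD of 0.0536 log2 in WT Tfh and 0.0807 in WT Th1 cells, against 0.109 in Rictor-null Tfh and 0.0732 in Rictor-null Th1 cells. Rictor itself gave 563 and 576 in Rictor-null Tfh arrays, 560 and 563 in WT Tfh arrays, 493 and 474 in Rictor-null Th1 arrays, and 468 and 556 in WT Th1 arrays. These signals do not check the genotype labels, since the sources used here do not state where the deletion lies relative to the probe set. Signals of the X-inactivation transcript Xist were 5172 and 5343 in WT Tfh and 5398 and 5357 in WT Th1 cells.

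The labels of the 2 lineages were checked against their defining genes. Cxcr5 gave 183 and 179 in Tfh cells, against 55.7 and 46.8 in Th1 cells, a difference of 1.36 ± 0.086 log2 (SE, adjusted p = 1.28e-05). Bcl6 gave 138 and 143 in Tfh cells, against 89.9 and 94.5 in Th1 cells (0.48 ± 0.055, adjusted p = 0.000645). Il21 gave 180 and 180 in Tfh cells, against 141 and 138 in Th1 cells (0.30 ± 0.070, adjusted p = 0.0209). For all 3 genes both Tfh arrays lay above both Th1 arrays. The arrays of the 2 groups were likewise apart, in either direction, for 67.7% of all genes and for every called gene. The inhibitory receptor gene Pdcd1 (0.39 ± 0.070), the Tfh factor gene Tox2 (0.92 ± 0.077), Sostdc1, whose secreted product blocks BMP and Wnt ligands (0.77 ± 0.058), and Sh2d1a, which encodes the SLAM adaptor SAP (0.69 ± 0.057), were also called higher. The costimulatory receptor gene Icos (0.11 ± 0.059, adjusted p = 0.214) and Cd200 (-0.12 ± 0.080, adjusted p = 0.319) were not called. The call of Pdcd1 ended without WT Tfh 1 (adjusted p = 0.0966) or WT Th1 1 (0.0614), and that of Il21 without WT Tfh 1 (0.137), WT Tfh 2 (0.13), WT Th1 1 (0.0925) or WT Th1 2 (0.0778). The Icos call appeared when each array was centred on its median (0.20, adjusted p = 0.048).

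The genes that usually define Th1 cells did not separate the lineages in this way. Tbx21 gave 430 and 422 in Tfh cells, against 451 and 444 in Th1 cells (-0.07 ± 0.056, adjusted p = 0.425). Ifng gave 1588 and 1605 in Tfh cells, against 1449 and 1540 in Th1 cells (0.09 ± 0.057, adjusted p = 0.274). Cxcr3, whose product is the receptor for interferon-induced chemokines, gave 2195 and 2208 in Tfh cells, against 2133 and 1986 in Th1 cells (0.10 ± 0.071, adjusted p = 0.363). So the Th1 arrays were the higher ones for Tbx21 by a margin that missed the threshold, and the Tfh arrays for Ifng and Cxcr3. Differences of Il18r1 (-0.02), the selectin ligand gene Selplg (0.00), Slamf1 (-0.12) and Cxcr6 (-0.23, adjusted p = 0.194) were not called. Cxcr6 was called lower in Tfh cells with the mean of its probe sets (-0.31, adjusted p = 0.0199). None of the Th1 markers chosen for this check was called higher in Th1 cells, and Gzmb was called higher in Tfh cells. Il12rb2 lay under the signal filter with 18.4 and 19.7 in Tfh and 13.5 and 16.1 in Th1 cells. The probe set that Ly6c1 and Ly6c2 share gave 3455 and 3348 in Tfh cells and 3124 and 3391 in Th1 cells, so its groups overlapped. The arrays were therefore separated along their labels by Tfh genes and not by these Th1 genes.

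Of the 11217 genes, 1653 were called (14.7%), of which 347 were higher in Tfh cells (3.09%) and 1306 lower (11.6%). Most differences were small: the median size among called genes was 0.28 log2, and 6 genes exceeded 1 log2 upward and 3 downward. Both arrays of one group lay beyond both arrays of the other for 7599 genes (67.7%) and for every called gene. The share of lower calls was 79.0% with signals as deposited, 59.8% after quantile normalization (405 higher and 602 lower), and 29.3% when each array was centred on its median (951 higher and 394 lower). List counts given below for a scaling stand against the counts of all 11217 genes under the same scaling, not against the shares as deposited. The median difference over all genes moved with the scaling, at -0.06 as deposited, -0.02 after quantile normalization and 0.04 after centring. The directions of called genes given with an SE held under all 3 scalings. The count of calls was 198 without WT Tfh 1, 270 without WT Tfh 2, 399 without WT Th1 1, 651 without WT Th1 2, and 2678 without either Rictor-null Tfh array. Of 142 called genes that the naming rule selects, 64 kept their call under every alternative that tested them. Of these 64, 59 were tested under all 24 alternatives and 5 under 23, since 1 of the alternative filters removed them. The called genes given below with an SE are of that kind unless an exception stands beside them. Some called list members given without an SE were picked after their values were seen and were not always recomputed singly. Others come from the naming rule and did not all keep their call. Among these, Stat6 lost it under 11 of 24 alternatives and Birc5 under 10 of 23. Of the 142 genes, 62 had other probe sets, 100 in all. Of these 100, 83 had the sign of the probe set used and 43 of the 83 were called. Called with the opposite sign were 0. Other probe sets are given below for some genes only.

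**Figure D1:**
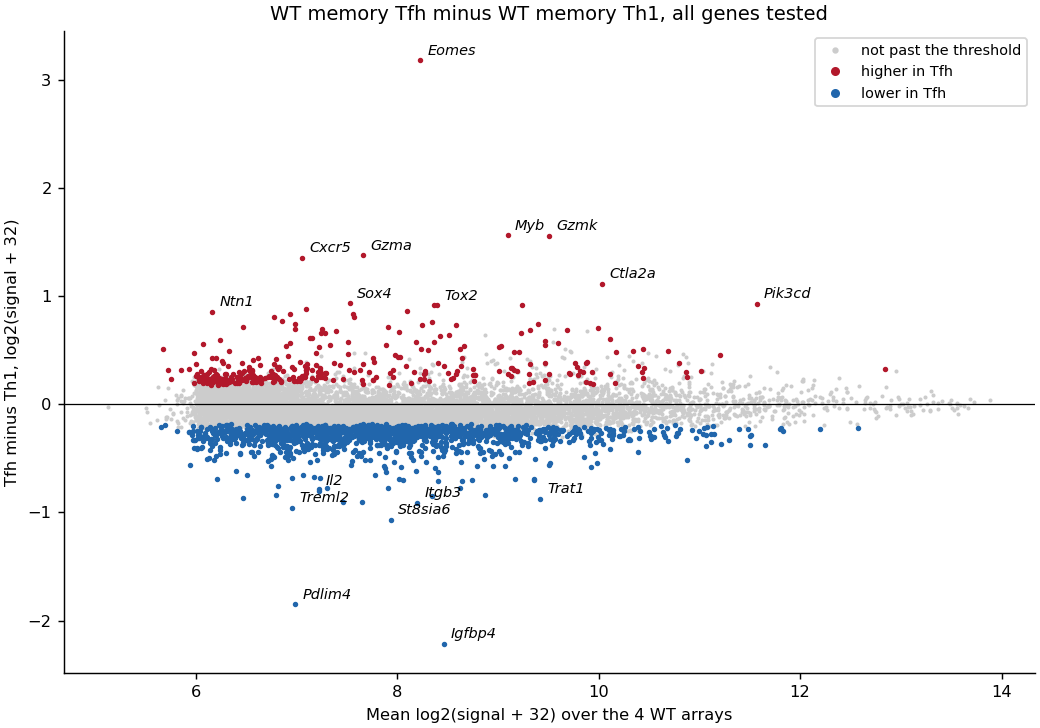
Each point is 1 of the 11217 genes, with its mean log2(signal + 32) over the 4 WT arrays on the x axis and its Tfh minus Th1 difference on the y axis, coloured where the adjusted p was under 0.05. Eomes stands alone at 3.18, Igfbp4 (-2.21) and Pdlim4 (-1.85) are the lowest points, and most called genes lie within 0.5 of 0.

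The largest difference belonged to Eomes, which encodes a T-box transcription factor of cytotoxic lymphocytes and memory T cells. It gave 912 and 833 in Tfh cells, against 66.9 and 68.3 in Th1 cells, a 9.07-fold difference (3.18 ± 0.075 log2, adjusted p = 3.08e-09). Its other probe set gave 2.84. Myb, which encodes a transcription factor of self-renewing lymphoid progenitors and stem-like T cells, gave 912 and 908 in Tfh cells, against 295 and 279 in Th1 cells (1.56 ± 0.056, adjusted p = 9.92e-08). Both genes were several-fold brighter on each Tfh array than on either Th1 array. Genes of 2 secreted granule proteases followed. Gzmk gave 1262 and 1176 in Tfh cells, against 396 and 387 in Th1 cells (1.56 ± 0.092). Gzma gave 300.4 and 288 in Tfh cells, against 99.1 and 87.8 in Th1 cells (1.38 ± 0.069, adjusted p = 2.23e-06). Cxcr5, given above, came next in size among genes whose call held under every alternative. The groups of all these genes were far apart relative to the distance between replicates.

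Below 1 log2, the factor gene Sox4, which has an HMG box, gave 219 and 228 in Tfh cells, against 103 and 100.0 in Th1 cells (0.93 ± 0.056). Pou2af1, which encodes a coactivator of octamer-binding factors best known from B cells, gave 157 and 151 in Tfh cells, against 71.0 and 66.9 in Th1 cells (0.88 ± 0.075). Plek, which encodes the protein kinase C substrate pleckstrin, gave 338.5 and 338.4 in Tfh cells, against 175 and 169 in Th1 cells (0.86 ± 0.060). All 3 had replicates closer to each other than to any array of the other lineage. Ntn1, which encodes the guidance protein netrin 1, gave 63.6 and 65.4 in Tfh cells, against 20.7 and 21.9 in Th1 cells, where it lay below the array median (0.86 ± 0.063). Jdp2, which encodes a repressor of the AP-1 family, gave 138 and 127 in Tfh cells, against 58.8 and 60.8 in Th1 cells (0.84 ± 0.060).

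Another 4 genes met the same size rule and were less stable. Ctla2a, which encodes an inhibitor of cysteine proteases, gave 1658 and 1384 in Tfh cells, against 542 and 857 in Th1 cells (1.12 ± 0.274, adjusted p = 0.0255). Lncpint, a long noncoding RNA, gave 879 and 725 in Tfh cells, against 345 and 481 in Th1 cells (0.92 ± 0.208, adjusted p = 0.0194). Their Th1 replicates were far apart. The Ctla2a call ended without WT Tfh 1 (adjusted p = 0.166), WT Tfh 2 (0.1) or WT Th1 1 (0.158), without the filter (0.0817) and with robust variances (0.145). That of Lncpint ended without WT Tfh 1 (0.148), WT Tfh 2 (0.0691) or WT Th1 1 (0.127), without the filter (0.0659) and with robust variances (0.114). For Pik3cd, which encodes the p110 delta catalytic subunit of phosphoinositide 3-kinase, the brightest probe set gave 0.93 ± 0.167 (adjusted p = 0.00708) and the other 3 gave -0.10, -0.09 and -0.17, none called. Its call ended with the mean of the probe sets (0.14, adjusted p = 0.0991), with robust variances (0.0548) and without WT Tfh 1 (0.0719). Rb1cc1, which encodes a scaffold of autophagy initiation, gave 0.92 ± 0.236 (adjusted p = 0.0297) and -0.19 with its other probe set. That call ended without the filter (0.0907), with robust variances (0.152), without WT Tfh 1 (0.199), WT Tfh 2 (0.0824), WT Th1 1 (0.16) or WT Th1 2 (0.0516), and without either Rictor-null Th1 array (0.055 each). Over the 15 genes with the largest positive differences, 8 of 12 other probe sets had the same sign and 6 of these were called.

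Since the gene of a T-box factor had the largest difference, the promoter windows of the genes were read for the T-box letters GGTGTGA on both strands. RefSeq windows on GRCm38.p6 run from 250 bases before to 50 bases after an annotated start and were given for 12 of the 15 genes. The letters occurred in windows of 3 of those 12 (25%), namely Myb, Gzmk and Jdp2, in 21 of 264 genes called higher in Tfh cells (7.95%), in 51 of 1083 called lower (4.71%), and in 393 of 9056 genes tested (4.34%). The window of Eomes held none. Shown here are the 250 bases before 1 annotated start of each of the 3 genes, 5′ to 3′ on the gene's strand, at chr10:21160985-21161234 (minus strand) for Myb, chr13:113180966-113181215 (minus strand) for Gzmk and chr12:85599166-85599415 (plus strand) for Jdp2, with the T-box letters in capitals.
Myb: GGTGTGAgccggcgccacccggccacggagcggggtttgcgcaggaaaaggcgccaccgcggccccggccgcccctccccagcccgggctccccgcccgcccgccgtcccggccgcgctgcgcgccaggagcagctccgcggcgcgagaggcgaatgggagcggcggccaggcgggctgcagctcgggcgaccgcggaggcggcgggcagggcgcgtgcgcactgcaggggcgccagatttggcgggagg
Gzmk: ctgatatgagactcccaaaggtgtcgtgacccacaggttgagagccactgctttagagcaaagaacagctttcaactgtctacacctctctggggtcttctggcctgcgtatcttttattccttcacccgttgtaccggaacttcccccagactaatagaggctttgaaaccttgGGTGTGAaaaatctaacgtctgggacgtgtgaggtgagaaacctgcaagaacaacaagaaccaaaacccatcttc
Jdp2: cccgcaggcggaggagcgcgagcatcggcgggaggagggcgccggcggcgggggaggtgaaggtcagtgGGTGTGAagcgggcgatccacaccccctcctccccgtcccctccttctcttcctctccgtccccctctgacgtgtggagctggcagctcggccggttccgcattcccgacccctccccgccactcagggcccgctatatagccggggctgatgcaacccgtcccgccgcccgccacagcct
In these windows the letters lie 250 to 244 bases before the start of Myb, 75 to 69 before that of Gzmk and 181 to 175 before that of Jdp2. Jdp2 has other annotated starts, whose windows held no match. Another 5 motifs were read in the same way. The AP-1 letters TGANTCA were in 11.4% of genes called higher, 6.0% of those called lower and 6.05% of those tested, and the CRE letters TGACGTCA in 1.52%, 4.34% and 3.68%. The shares for TCF/LEF (CTTTGAA) were 5.68%, 3.42% and 4.37%, for RUNX (TGTGGTT) 4.92%, 4.52% and 4.64%, and for MYB (CAACTG) 14.8%, 13.6% and 12.5%. Among the 12 genes of the 15 with a window, the MYB letters were also in 3 (25%). The AP-1, TCF/LEF and RUNX letters were in 1 each and the CRE letters in 0. A gene counted if any of its windows held the letters. The 12 genes had 21 windows, and the 9056 genes tested had 11543. A match of letters is a description of the sequence and does not show that a factor binds there.

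Among genes lower in Tfh cells, the largest difference was that of Igfbp4, which encodes a secreted binding protein of insulin-like growth factors. It gave 123 and 141 in Tfh cells, against 740 and 714 in Th1 cells, 4.64-fold lower (-2.21 ± 0.073, adjusted p = 5.4e-08), and all 5 of its other probe sets had the same sign. Pdlim4, which encodes an actin-associated PDZ and LIM domain protein, gave 32.5 and 37.5 in Tfh cells, against 205 and 213 in Th1 cells (-1.85 ± 0.101, adjusted p = 4.78e-06). On the Tfh arrays Pdlim4 was therefore near the array median. St8sia6, which encodes a sialyltransferase that adds sialic acid to sialic acid, gave 137 and 138 in Tfh cells, against 339 and 307 in Th1 cells (-1.07 ± 0.074). A second enzyme of this family, St8sia1, gave 219 and 204 in Tfh cells, against 379 and 434 in Th1 cells (-0.85 ± 0.086). For both sialyltransferases the 2 groups lay well apart. The receptor gene Treml2 gave 55.8 and 58.2 in Tfh cells, against 137 and 144 in Th1 cells (-0.96 ± 0.065).

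The other genes of this size have varied roles. Itgb3, which encodes the beta 3 integrin chain, gave 174 and 192 in Tfh cells, against 382 and 361 in Th1 cells (-0.91 ± 0.072). The adhesion gene L1cam gave 312 and 323 in Tfh cells, against 605 and 583 in Th1 cells (-0.84 ± 0.071). Trat1, which encodes an adaptor that associates with the T cell receptor, gave 486 and 461 in Tfh cells, against 837 and 955 in Th1 cells (-0.87 ± 0.083). In each of these 3 genes no Tfh array came near a Th1 array. Il2, the gene of the T cell growth factor IL-2, gave 80.7 and 81.9 in Tfh cells, against 156 and 174 in Th1 cells (-0.80 ± 0.062). The transcription factor genes Fosl2 (-0.90 ± 0.075) and Atf3 (-0.78 ± 0.066), the AMP deaminase gene Ampd3 (-0.86 ± 0.072), the phospholipase gene Plcb4 (-0.84 ± 0.068) and Bst2, the gene of the interferon-induced protein tetherin (-0.78 ± 0.091), completed the set with Ramp1. The other probe set of Fosl2 gave -0.03 and those of Plcb4 gave -0.12 and -0.22, none of them called. Ramp1 encodes a subunit of the receptor for the neuropeptide CGRP and gave 113 and 117 in Tfh cells, against 250 and 236 in Th1 cells (-0.90 ± 0.064), while its other probe set gave 0.11 and was not called. Over these 15 genes, 14 of 15 other probe sets had the same sign and 9 of these were called.

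**Figure D2:**
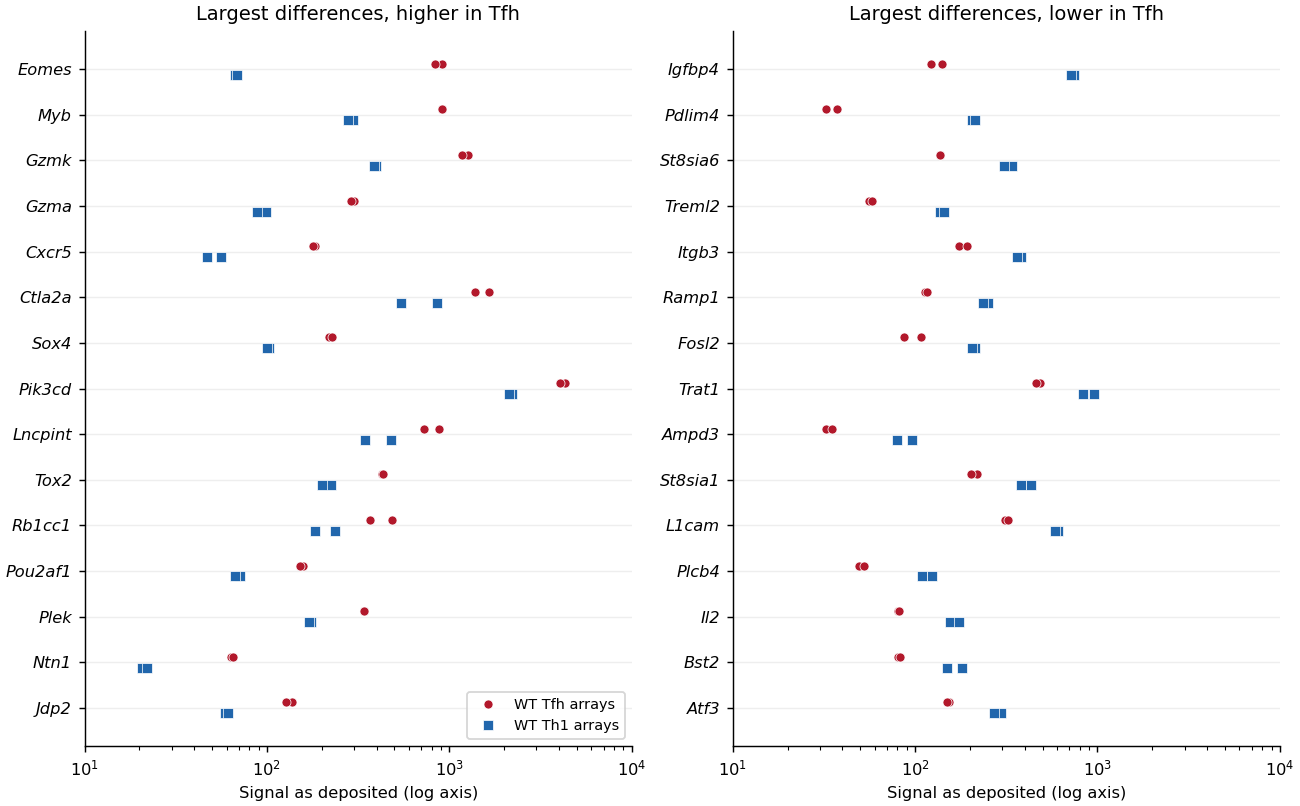
Deposited signals (log axis) of the 15 genes with the largest positive and the 15 with the largest negative differences, with 1 point per WT array, Tfh as circles above Th1 as squares. The groups are apart in every line because the genes were selected that way, and Ctla2a, Lncpint and Rb1cc1 have the widest spread between replicates on the left.

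A part of the cytotoxic and effector genes usually counted as Th1 was higher in Tfh cells. Of 46 genes of a Th1 list, 40 were tested, and 15 of these were called higher in Tfh cells, 3 lower and 22 not at all (37.5% higher and 7.5% lower, against 3.09% and 11.6% of all genes). The median difference of the 40 was 0.05, against -0.06 over all genes. Beside Eomes, Gzma and Gzmk, perforin gene Prf1 gave 132 and 127 in Tfh cells, against 68.0 and 67.4 in Th1 cells (0.70 ± 0.086). Its other probe set gave 0.08 and was not called. The granzyme gene Gzmb gave 157 and 161 in Tfh cells, against 90.5 and 87.0 in Th1 cells (0.66 ± 0.060). Nkg7, whose product takes part in granule release, gave 2737 and 2731 in Tfh cells, against 1938 and 2042 in Th1 cells (0.45 ± 0.057). Each of these genes was higher on both Tfh arrays than on either Th1 array, as was every gene called higher. The members lower in Tfh cells were the IL-2 receptor chain gene Il2rb (-0.40 ± 0.061), Bhlhe40 and Ahnak. The Il2rb call ended without WT Tfh 1 (adjusted p = 0.0633).

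Of 21 tested genes of granules, 8 were called higher in Tfh cells and 2 lower, with a median of 0.05. These are 38.1% higher and 9.52% lower, against 3.09% and 11.6% of all genes. The 2 lower ones were Unc13d (-0.35) and Ctsl (-0.23). The Unc13d call ended under 4 of 24 alternatives, each with a WT array left out. That of Ctsl ended under 10 of 24, among them quantile normalization and centring. Among the 11 members not called were the serglycin gene Srgn, with 8261 and 8123 in Tfh and 7936 and 7858 in Th1 cells (0.05 ± 0.057), Lamp1 (0.04) and cathepsin W gene Ctsw (0.01). Receptors of the NK lectin family followed the granzymes, with 4 of 7 tested called higher (57.1%) and 0 lower by limma (1 at an unadjusted p under 0.05). Klrc1 gave 165 and 160 in Tfh cells, against 87.2 and 89.5 in Th1 cells (0.69 ± 0.067). Klrg1, whose product marks terminally differentiated cells, gave 142 and 140 in Tfh cells, against 82.6 and 80.5 in Th1 cells (0.61 ± 0.071). Klre1 was dim, with 26.3 and 32.03 in Tfh cells against 12.2 and 9.61 in Th1 cells (0.51 ± 0.079), all below the array medians, and Klrk1 (-0.14 ± 0.056, adjusted p = 0.103) was not called.

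Among 12 tested chemokine ligand genes, 4 were called higher in Tfh cells (33.3%, against 3.09% of all genes) and 0 lower by limma (0 at an unadjusted p under 0.05). All 4 are also among the members of the Th1 list called higher, as is Klrg1 above. The counts of these lists are therefore not separate. Ccl4 gave 217 and 224 in Tfh cells, against 121 and 103 in Th1 cells (0.81 ± 0.083). Ccl3 gave 80.2 and 83.6 in Tfh cells, against 35.8 and 39.0 in Th1 cells (0.72 ± 0.064), and Xcl1 gave 64.6 and 62.5 in Tfh cells, against 35.3 and 36.1 in Th1 cells (0.50 ± 0.057). These genes encode secreted chemokines, and on the Th1 arrays Ccl3 and Xcl1 were at about the array median. Ccl5, the brightest of the 4, gave 8163 and 8173 in Tfh cells, against 6607 and 6436 in Th1 cells (0.32 ± 0.056), a call that ended without WT Tfh 1 (adjusted p = 0.074) or WT Tfh 2 (0.0682). Without WT Tfh 1, WT Tfh 2, WT Th1 1 and WT Th1 2 in turn, 10, 10, 12 and 12 members of the Th1 list were called higher, 5 granule genes each time, 3, 3, 3 and 4 NK receptor genes, and 3, 3, 4 and 4 ligand genes.

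Of a list of 40 genes of Tfh cells, 37 were tested, and 13 were called higher in Tfh cells and 8 lower, with a median of 0.01. These are 35.1% higher and 21.6% lower, against 3.09% and 11.6% of all genes. After quantile normalization 13 were higher and 4 lower, and when arrays were centred 16 and 3. The members that the label check did not name include Tox, whose product is an HMG-box factor of Tfh and chronically stimulated T cells, with 291 and 261 in Tfh cells against 140 and 172 in Th1 cells (0.72 ± 0.099, adjusted p = 0.00169). Maf, whose product drives Il21 and Il10 in Tfh cells, gave 1722 and 1543 in Tfh cells, against 988 and 1302 in Th1 cells (0.51 ± 0.149, adjusted p = 0.0441), a call that ended under 11 of the 24 alternatives, among them without WT Tfh 1 (adjusted p = 0.231), WT Tfh 2 (0.134) or WT Th1 1 (0.263). Members lower in Tfh cells were led by St8sia1. They also held the cytokine gene Il4, with 22.6 and 23.7 in Tfh cells against 36.9 and 45.0 in Th1 cells, below the array medians in Tfh and near them in Th1 cells (-0.40 ± 0.065), whose call ended without WT Tfh 1 (adjusted p = 0.064). The P2X7 receptor gene P2rx7 was at -0.52, the costimulatory receptor gene Tnfrsf4 at -0.34, and the IL-6 receptor chain genes Il6ra and Il6st at -0.31 and -0.27. Lef1, with 1154 and 1116 in Tfh and 1179 and 1177 in Th1 cells (-0.05), Id3 (-0.14), Ascl2 (0.09) and Irf4 (-0.17) were not called. With each WT array left out in turn, 7, 8, 8 and 11 members were called higher and 2, 3, 3 and 3 lower.

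**Figure D3:**
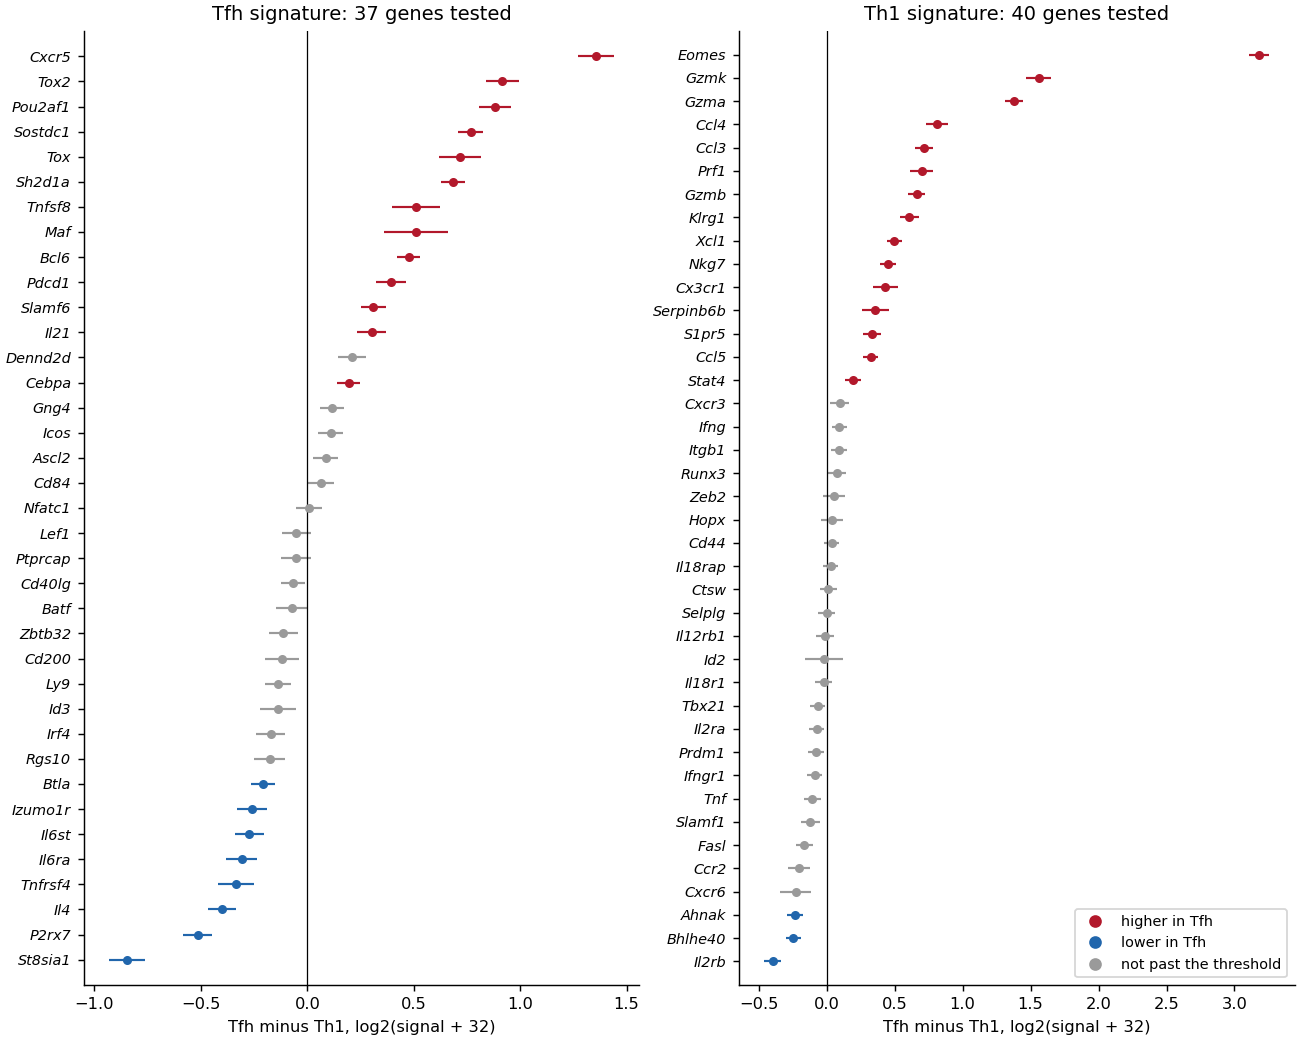
Tfh minus Th1 difference (x axis, log2(signal + 32), bars 1 SE) of the 37 tested genes of the Tfh list and the 40 of the Th1 list, coloured where the adjusted p was under 0.05. The Th1 list is led by Eomes (3.18), Gzmk (1.56) and Gzma (1.38) on the side of Tfh cells, and Tbx21 and Ifng lie beside 0.

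Among 70 tested transcription factors of T cell fate, 17 were called higher in Tfh cells and 12 lower, a median of 0.02. These are 24.3% higher and 17.1% lower, against 3.09% and 11.6% of all genes. When arrays were centred the counts were 19 and 4, a median of 0.12. The higher ones were led by Eomes, Myb, Sox4, Tox2, Pou2af1 and Tox, with Bcl6 at 0.48. Ikzf2, which encodes Helios, gave 1051 and 1048 in Tfh cells, against 771 and 812 in Th1 cells (0.39 ± 0.064), a call that ended without WT Tfh 1 (adjusted p = 0.0579). Of the lower ones, Ahr, the gene of the aryl hydrocarbon receptor, gave 80.6 and 84.5 in Tfh cells, against 138 and 163 in Th1 cells (-0.67 ± 0.070, adjusted p = 0.000312). Gata3, whose product directs Th2 cells, gave 386 and 365 in Tfh cells, against 574 and 573 in Th1 cells (-0.57 ± 0.068, adjusted p = 0.000692). Both stood apart from the remaining lower members, which lay at -0.38 or closer to 0. Klf2, whose product controls exit from lymphoid tissue, gave 2570 and 2659 in Tfh cells, against 3105 and 3269 in Th1 cells (-0.28 ± 0.071, adjusted p = 0.0278). Its call ended when arrays were centred (adjusted p = 0.0812) and without WT Tfh 1 (0.18), WT Tfh 2 (0.128), WT Th1 1 (0.0862) or WT Th1 2 (0.113). The effector factor genes Prdm1 (-0.08 ± 0.060), Id2 (-0.02 ± 0.138) and Runx3 (0.07 ± 0.069) were not called, although Id2 was called lower with the mean of its probe sets (-0.20, adjusted p = 0.0405). On leaving out the WT arrays in turn, 8, 11, 10 and 14 of the 70 were called higher and 3, 2, 3 and 5 lower.

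Receptors that place the cells in tissue differed for a few members. Of 22 chemokine receptor genes, 12 were tested, 2 were called higher in Tfh cells and 3 lower, and when arrays were centred 2 and 2. As deposited these are 16.7% higher and 25% lower, against 3.09% and 11.6% of all genes. Ccr7, whose product brings T cells to the T zone, gave 478 and 479 in Tfh cells, against 644 and 675 in Th1 cells (-0.44 ± 0.055, adjusted p = 0.00094), so Cxcr5 and Ccr7 differed in opposite directions. The fractalkine receptor gene Cx3cr1 gave 79.2 and 84.6 in Tfh cells, against 56.9 and 48.1 in Th1 cells (0.43 ± 0.094), and its call ended without WT Tfh 1 (adjusted p = 0.0926), WT Tfh 2 (0.125) or WT Th1 2 (0.0792). Ccrl2 (-0.39) and Ccr9 (-0.25) were the other lower ones. Ccrl2 was not called without WT Tfh 1 (adjusted p = 0.0911), WT Tfh 2 (0.115) or WT Th1 1 (0.107), nor Ccr9 without WT Tfh 1 (0.14), WT Tfh 2 (0.15), WT Th1 1 (0.0738) or WT Th1 2 (0.104), when arrays were centred (0.0877), with a pseudocount of 64 (0.0531) or with the mean of its probe sets (0.0816). Ccr2 (-0.20 ± 0.080, adjusted p = 0.107), Cxcr4 (0.08), Ccr6 (-0.06), Ccr10 (-0.18) and Ackr4 (-0.10) were not called. For Ccr2, the other probe sets were called lower in a limma fit by probe set (-0.45, adjusted p = 0.00395, and -0.26, adjusted p = 0.0358). Ccr2 was called lower under 6 of the 24 alternatives. Counts without each WT array in turn were 1, 1, 2 and 1 higher and 1, 1, 1 and 2 lower.

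Of 26 tested receptors and regulators of egress and positioning, 3 were called higher in Tfh cells and 8 lower. These are 11.5% and 30.8%, against 3.09% and 11.6% of all genes. When arrays were centred the counts were 5 and 2, so the direction of the list depends on the scaling. Its largest difference was that of Ebi3, which encodes a cytokine subunit and no receptor (-0.76 ± 0.064). Gpr183, the oxysterol receptor gene that guides cells within follicles, gave 978 and 999 in Tfh cells, against 810 and 784 in Th1 cells (0.30 ± 0.063). Its call ended without WT Tfh 1 (adjusted p = 0.106), WT Tfh 2 (0.123), WT Th1 1 (0.0627) or WT Th1 2 (0.0678). S1pr1, the gene of the receptor for exit into blood, gave 734 and 754 in Tfh cells, against 815 and 1062 in Th1 cells (-0.31 ± 0.103, adjusted p = 0.066), with Th1 replicates that differed more than the groups, and it was called lower without WT Th1 1 (-0.50, adjusted p = 0.0126). S1pr2, whose product holds cells in germinal centres, was at 0.19 ± 0.059 (adjusted p = 0.0521) and was called higher after quantile normalization (0.26, adjusted p = 0.0237). For integrins and adhesion, 2 of 28 were called higher (7.14%) and 6 lower (21.4%), and when arrays were centred 3 and 3. Alcam, the gene of the CD6 ligand, gave 311 and 280.0 in Tfh cells, against 178 and 169 in Th1 cells (0.67 ± 0.064). Itgae, the gene of the CD103 chain that binds E-cadherin, gave 58.7 and 61.9 in Tfh cells, against 89.0 and 105 in Th1 cells (-0.48 ± 0.071). With 1 WT array fewer, in that order, 0, 0, 0 and 1 of the egress list were higher and 2, 2, 3 and 4 lower, and 1 of the adhesion list was higher each time and 3, 3, 4 and 4 lower.

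Among cytokines and their receptors the lower calls outnumbered the higher ones in Tfh cells, as they did over all called genes (79.0% lower). Shares called lower were 30.4% of cytokine, 31.2% of cytokine receptor and 30.4% of feedback genes, against 11.6% of all genes. Shares called higher were 13%, 3.12% and 0%, against 3.09%. Of 23 tested cytokine genes, 3 were called higher (Tnfsf8, Il21 and Il10) and 7 lower, a median of -0.12, and when arrays were centred 3 and 5, a median of -0.02. Below Il2 in size came the oncostatin M gene Osm, with 110 and 99.5 in Tfh cells against 146 and 148 in Th1 cells (-0.39 ± 0.059), and the lymphotoxin beta gene Ltb, with 2721 and 2855 in Tfh cells against 3757 and 3500 in Th1 cells (-0.38 ± 0.063). The Osm call ended without WT Tfh 2 (adjusted p = 0.053) and that of Ltb without WT Tfh 1 (0.0782). Of 32 tested cytokine receptor genes, 1 was called higher and 10 lower, a median of -0.11, and when arrays were centred 2 and 4, a median of -0.02. Acvr1b, which encodes an activin receptor, gave 170 and 175 in Tfh cells, against 298 and 299 in Th1 cells (-0.69 ± 0.078), and was the largest of them. Il7r, whose product sustains memory T cells, gave 4407 and 4553 in Tfh cells, against 5325 and 4892 in Th1 cells (-0.19 ± 0.061, adjusted p = 0.064). The IL-2 receptor alpha chain gene Il2ra was at the array median in both lineages and was not called (-0.07 ± 0.054). Of 23 genes of cytokine feedback, 0 were called higher by limma (0 at an unadjusted p under 0.05) and 7 lower, and when arrays were centred 1 and 2. They were led by Socs2, with 87.0 and 91.3 in Tfh cells against 175 and 175 in Th1 cells (-0.77 ± 0.082), and Cish, with 402 and 417 in Tfh cells against 644 and 600.1 in Th1 cells (-0.57 ± 0.061), both of which encode inhibitors induced by STAT5. Without each WT array in turn, 2, 3, 5 and 5 cytokines, 1, 2, 2 and 6 cytokine receptors and 2 feedback genes each time were lower, and 0, 0, 0 and 1 cytokines were higher.

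Surface receptors of help and restraint had calls in both directions with signals as deposited, and no lower call in any of the 3 lists when arrays were centred. With that centring only 394 of all 11217 genes were called lower, and 951 higher. At that rate lists of 22, 16 and 11 tested genes would hold few lower calls. Among 22 tested costimulatory genes, 4 were called higher in Tfh cells and 6 lower, and when arrays were centred 7 and 0. As deposited these are 18.2% higher and 27.3% lower, against 3.09% and 11.6% of all genes. Crtam, the gene of a receptor linked to cytotoxic CD4 cells, gave 220.4 and 220.5 in Tfh cells, against 107 and 111 in Th1 cells (0.84 ± 0.056, adjusted p = 2.09e-05). Among 16 tested inhibitory receptors, 3 were higher (18.8%, Klrg1, Lag3 and Pdcd1) and 2 lower (12.5%, Cd96 and Btla), and 4 and 0 after quantile normalization or centring. Lag3 gave 118 and 116 in Tfh cells, against 61.6 and 75.4 in Th1 cells (0.57 ± 0.086, adjusted p = 0.00282). Of 11 tested SLAM receptors and adaptors, 3 were higher (27.3%) and 1 lower (9.09%), and when arrays were centred 4 and 0. Slamf7 gave 120 and 106 in Tfh cells, against 48.0 and 53.9 in Th1 cells (0.81 ± 0.066), and Sh2d1a gave 793 and 766 in Tfh cells, against 465 and 480 in Th1 cells. Slamf6 gave 976 and 964 in Tfh cells, against 809 and 744 in Th1 cells (0.31 ± 0.059). The remaining receptors of the family, Cd84 (0.06), Ly9 (-0.14), Cd48 (-0.04), Slamf1 and Slamf9 (0.11), were not called. The Slamf6 call ended with the mean of its probe sets (0.11, adjusted p = 0.153) and without WT Tfh 1 (0.1), WT Tfh 2 (0.0804) or WT Th1 2 (0.0617), and those of Cd96 and Btla ended when any 1 of the 4 WT arrays was left out (adjusted p from 0.0519 to 0.202 over both). With each WT array left out in turn, 1, 1, 1 and 3 costimulatory, 2, 3, 2 and 3 inhibitory and 2, 2, 3 and 2 SLAM genes were higher, and 0 of these lists were lower.

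Many genes that respond to antigen receptor signals were lower in Tfh cells. Of 36 tested early-response genes, 17 were called lower (47.2%, against 11.6% of all genes) and 1 higher, the nuclear receptor gene Nr4a2 at 0.71, with a median of -0.18. When arrays were centred 7 were lower and 3 higher. Beside Fosl2 and Atf3, the phosphatase gene Dusp10 gave 482 and 489.6 in Tfh cells, against 801 and 807 in Th1 cells (-0.69 ± 0.055, adjusted p = 4.8e-05). Zfp36, which encodes an mRNA decay factor, gave 1850 and 1830 in Tfh cells, against 2450 and 2376 in Th1 cells (-0.39 ± 0.059). The AP-1 genes Jun (-0.36), Junb (-0.28) and Fos (-0.22) and the nuclear receptor genes Nr4a1 (-0.29) and Nr4a3 (-0.33) were lower too. Of 39 tested genes of T cell receptor signalling, 6 were lower and 1 higher, and when arrays were centred 4 and 4. As deposited these are 15.4% lower and 2.56% higher, close to the 11.6% and 3.09% of all genes. After Trat1, the adaptor gene Sit1 gave 418 and 410 in Tfh cells, against 620 and 548 in Th1 cells (-0.46 ± 0.075). On leaving out the WT arrays in turn, 4, 5, 7 and 9 early-response genes and 2, 2, 3 and 4 signalling genes were lower.

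Counts in lists that mark neighbouring T cell states stand beside the 79.0% of all called genes that were lower. Shares called lower were 23.1% of the S100 group, 33.3% of memory, 20% of Th17, 57.1% of Th2 and 50% of regulatory genes. Shares called higher were 3.85%, 5.56%, 20%, 0% and 18.8%, in that order. Over all genes 11.6% were called lower and 3.09% higher. Of 26 tested genes of the S100, annexin and galectin group, 6 were called lower and 1 higher, and when arrays were centred 4 and 1. Lmna, the lamin A gene, gave 72.2 and 76.7 in Tfh cells, against 136 and 135 in Th1 cells (-0.65 ± 0.081). Its other probe set gave -0.004 and was not called. Capg, which encodes an actin-capping protein, gave 214 and 194 in Tfh cells, against 338 and 322 in Th1 cells (-0.62 ± 0.062). Of 18 memory and quiescence genes, 6 were lower and 1 higher (3 and 1 when arrays were centred), led by Btg2, with 724 and 806 in Tfh cells against 1142 and 1176 in Th1 cells (-0.58 ± 0.088), a call that ended without WT Tfh 1 (adjusted p = 0.0519). The Th17-associated ion channel gene Tmem176b gave 118 and 125 in Tfh cells, against 192 and 198 in Th1 cells (-0.56 ± 0.071). Of 10 tested Th17 genes 2 were higher and 2 lower, and of 7 tested Th2 genes 4 were lower (2 when arrays were centred), Gata3, Il4, Il4ra and Stat6. Of 16 tested markers of regulatory T cells, 8 were lower and 3 higher, and when arrays were centred 4 and 4, with Ebi3 at 56.1 and 53.4 in Tfh cells against 123 and 107 in Th1 cells. The summed signal of the 17 markers with a probe set, whether or not they passed the filter, ran from 5165 to 5282 in Tfh cells. In Th1 cells it ran from 5627 to 5636. Foxp3, which defines regulatory T cells, lay under the signal filter with 18.8 and 23.0 in Tfh and 16.9 and 23.7 in Th1 cells, so its groups overlapped below the array medians. With 1 WT array fewer, in that order, 2, 2, 2 and 4 of the S100 group, 2, 2, 3 and 3 memory genes, 3, 3, 4 and 4 regulatory markers and 1, 2, 2 and 3 Th2 genes were lower.

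Counts in lists of interferon, survival and metabolic genes stand beside the 3.09% of all genes called higher and the 11.6% called lower. Shares called lower were 20% for interferon-stimulated, 18.9% for mTOR and AKT and 17.4% for Notch and Wnt genes. They were 13.6% for ferroptosis, 11.5% for BCL2 family, 10.5% for glycolysis and 4.55% for sterol and fatty acid synthesis genes. Proliferation genes had 18.5% called higher and 0% lower. Of 45 tested interferon-stimulated genes, 9 were called lower in Tfh cells and 1 higher, a median of -0.14, and when arrays were centred 6 and 1. The guanylate-binding protein gene Gbp6 gave 294 and 300.3 in Tfh cells, against 451 and 440 in Th1 cells (-0.54 ± 0.054), and the GTPase gene Iigp1 gave 202 and 210 in Tfh cells, against 280 and 304 in Th1 cells (-0.45 ± 0.058). The higher one was Ifitm1, with 165 and 163 in Tfh cells against 99.8 and 84.6 in Th1 cells (0.66 ± 0.065), so the list held members that stood apart in both directions. Of 27 tested proliferation genes, 5 were higher and 0 lower by limma (0 at an unadjusted p under 0.05), all small, from Birc5 (0.22) to Ube2c (0.38). After quantile normalization 8 were higher, when arrays were centred 11, and without any 1 WT array 0 or 1. Of 37 mTOR and AKT pathway genes, 7 were lower and 1 higher (2 and 2 when arrays were centred). Ddit4, which encodes an inhibitor of mTOR complex 1, gave 86.4 and 86.5 in Tfh cells, against 159 and 158 in Th1 cells (-0.68 ± 0.056, adjusted p = 6.04e-05). Pik3ip1, which encodes an inhibitor of phosphoinositide 3-kinase, gave 232 and 217 in Tfh cells, against 327 and 322 in Th1 cells (-0.48 ± 0.064). Of 23 Notch and Wnt genes, 4 were lower and 1 higher. Axin2, a target and inhibitor of Wnt signals, gave 402 and 391 in Tfh cells, against 574 and 540.1 in Th1 cells (-0.46 ± 0.064). Of 22 sterol and fatty acid synthesis genes, 1 was higher, the desaturase gene Scd2 (0.44 ± 0.055), and 1 lower. The other probe set of Scd2 gave 0.07 and was not called. Of 26 BCL2 family and survival genes, 2 were higher and 3 lower (3 and 0 when arrays were centred), of 19 glycolysis genes 1 and 2, of 22 ferroptosis and antioxidant genes 0 and 3 (0 and 0 when arrays were centred), and of 19 fatty acid oxidation genes 0 by limma (0 higher and 4 lower at an unadjusted p under 0.05). Without each WT array in turn, 3, 5, 4 and 7 interferon-stimulated, 2, 2, 3 and 3 mTOR and AKT and 1, 2, 2 and 3 Notch and Wnt genes were lower.

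**Figure D4:**
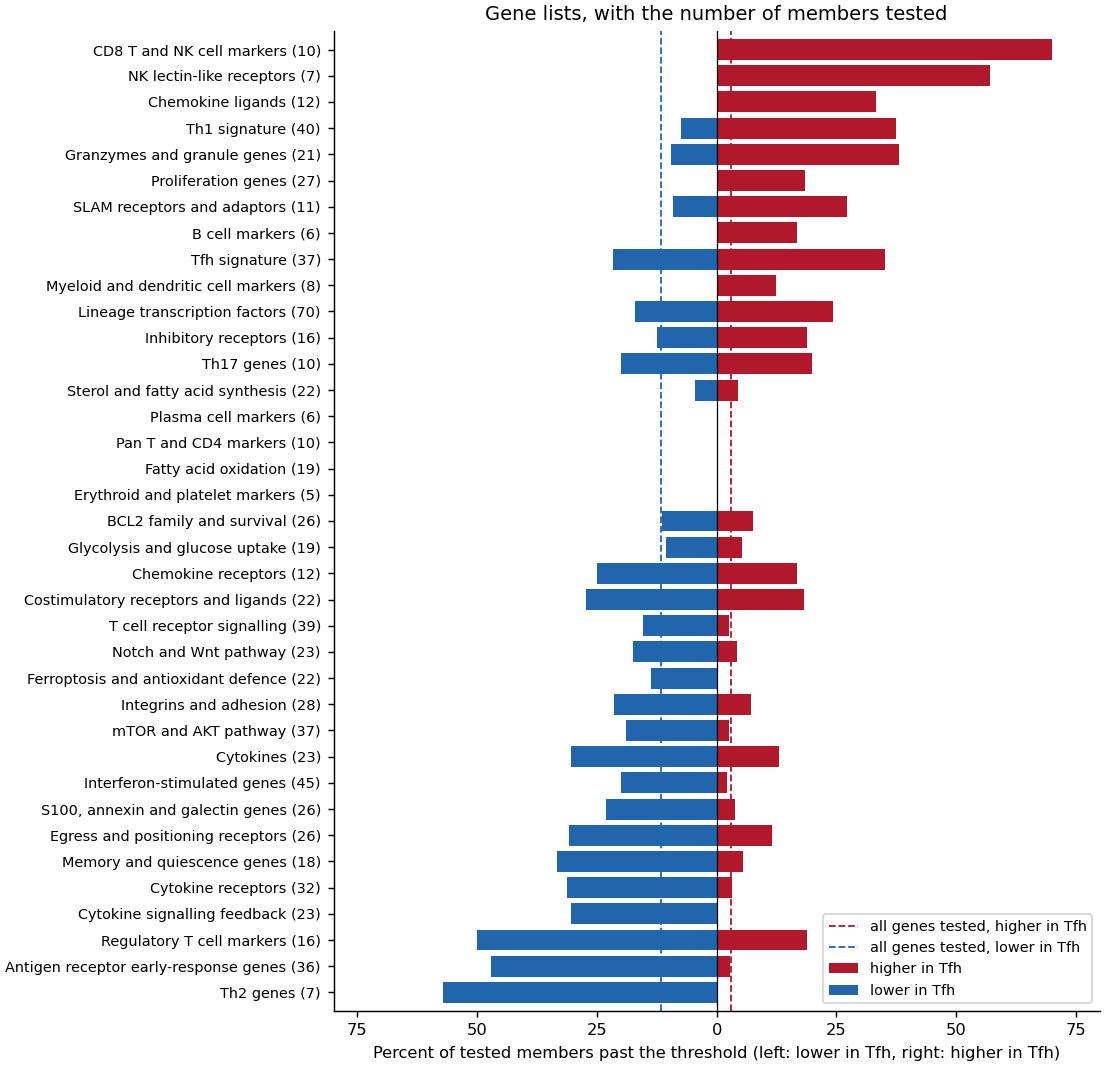
For each gene list, the percentage of tested members (number in brackets) called lower in Tfh cells (to the left) and higher (to the right), with dashed lines at the 11.6% and 3.09% of all genes tested. Lists of cytotoxic cells lie at the top, with 70.0% of 10 CD8 T and NK cell markers higher, and Th2, early-response and regulatory lists at the bottom.

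Markers of other cell types that a sort could carry along were set beside these results. Of 10 tested CD8 T and NK cell markers, 7 were called higher in Tfh cells (70%, against 3.09% of all genes). The summed signal of the 12 markers with a probe set, tested or not, ran from 3783 to 3975 in Tfh cells. In Th1 cells it ran from 1788 to 1805. The 7 were Eomes, Gzmk, Gzma, Klrc1, Klre1, Xcl1 and Klrd1, all also members of the lists above, and the part of such cells in the result was not tested. The genes of the CD8 co-receptor itself were little above the array medians and were not called higher in Tfh cells: Cd8a gave 47.3 and 49.2 in Tfh and 52.2 and 41.1 in Th1 cells, and Cd8b1 gave 45.2 and 43.3 in Tfh and 54.0 and 56.0 in Th1 cells. Cd4 gave 417 and 416 in Tfh and 463 and 442 in Th1 cells (-0.11 ± 0.055, adjusted p = 0.186), and 0 of 10 tested pan T cell markers were called by limma (1 higher and 2 lower at an unadjusted p under 0.05). Of 21 B cell markers, 12 lay under the filter, among them Cd79a (20.7 and 23.2 in Tfh, 20.4 and 23.3 in Th1 cells), and 1 of 6 tested was called, Cd22, with 352 and 337 in Tfh cells against 246 and 223 in Th1 cells (0.50 ± 0.087). Its call ended without WT Tfh 1 (adjusted p = 0.072). The summed B cell marker signal was 2723 to 2789 in Tfh and 2768 to 2934 in Th1 cells, most of it Ighm. Of 6 plasma cell and 5 erythroid and platelet markers 0 were called by limma (1 higher and 1 lower in each list at an unadjusted p under 0.05), and 1 of 8 myeloid markers was, Fcer1g (0.22), which lost its call without any 1 of the 4 WT arrays (adjusted p from 0.0565 to 0.222). In pooled bulk RNA, more cells that express a gene and more RNA per cell cannot be told apart.

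The same lineage difference was measured in the 4 Rictor-null arrays, which the WT contrast did not use, although both contrasts share 1 estimate of spread. There 1090 genes were called (9.72%), 367 higher in Tfh cells and 723 lower. Of the 1653 genes called in WT cells, 1301 had the same sign in Rictor-null cells. Calls in both genotypes with the same sign numbered 406 (104 higher and 302 lower), which is 24.6% of the WT calls and 37.3% of the Rictor-null calls, and 33 genes were called with opposite signs. Across genes, which are not independent replicates, Pearson r between the 2 differences was 0.40 over all genes and 0.67 over those called in WT cells. Of the 15 genes with the largest positive WT differences, 13 had the same sign and 11 were called in Rictor-null cells, and of the 15 with the largest negative ones 14 and 13. The difference of Eomes was 3.31 in Rictor-null and 3.18 in WT cells, that of Myb 1.57 and 1.56, that of Cxcr5 1.85 and 1.36, and that of Pdlim4 -1.51 and -1.85. Tbx21 (-0.01) and Ifng (0.12) were not called in Rictor-null cells either.

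The test of the difference between the genotypes called 136 genes (1.21%), of which 90 were among those called in WT cells. Genes called in WT cells were chosen on WT arrays that this test also uses, so their share is not set against that of all genes. Bst2 was lower in Tfh cells of WT mice and higher in those of Rictor-null mice (0.62 in Rictor-null, -0.78 in WT cells, adjusted p = 0.000801 for the difference). Ramp1 was not called between lineages in Rictor-null cells (-0.02, against -0.90 in WT cells, adjusted p = 0.00138). Gzma differed by 0.63 in Rictor-null and 1.38 in WT cells (adjusted p = 0.00499), Gzmb by 0.11 and 0.66 (0.0138), Klrg1 by -0.01 and 0.61 (0.0165) and Klre1 by -0.42 and 0.51 (0.00378). So these 4 differences were smaller, not called or opposite in Rictor-null cells, while that of Gzmk was 1.98 in Rictor-null and 1.56 in WT cells and did not differ past the threshold (adjusted p = 0.142). Ahr (-1.42 in Rictor-null, -0.67 in WT cells, adjusted p = 0.00564) and Sostdc1 (1.31 in Rictor-null, 0.77 in WT cells, adjusted p = 0.0118) differed more between lineages in Rictor-null cells. The count of 136 was 27 without WT Tfh 1, 30 without WT Tfh 2, 77 without WT Th1 1, 60 without WT Th1 2, 31 and 50 without Rictor-null Th1 1 and 2, and 1614 without Rictor-null Tfh 1.

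**Figure D5:**
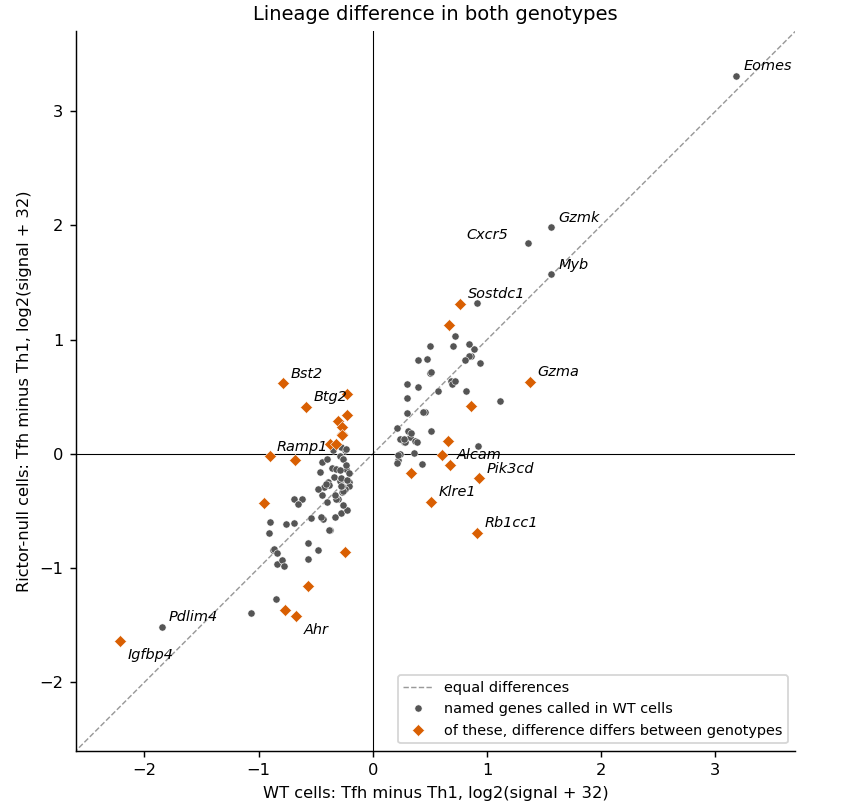
Lineage difference in WT cells (x axis) against the same difference in Rictor-null cells (y axis), both Tfh minus Th1 on log2(signal + 32), for the 142 named genes called in WT cells. Eomes, Myb, Gzmk and Cxcr5 lie near or above the dashed line of equal differences, and diamonds mark the 29 genes whose difference was called between genotypes, such as Bst2, Ramp1, Gzma and Klre1.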

How the data were processed

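Gene expression was measured on 8 arrays, 2 for each of 4 groups. The values are the intensity per probe set that the authors deposited, on a linear scale. The submitters' processing notes name MAS5 and RMA without their roles, and no genome build, scan batch or detection call is given in the sources used here. Groups and replicate numbers came from the sample titles. Of 45037 probe sets, 34945 had 1 gene symbol, 932 several and 9160 none in the platform annotation. Probe sets above the array median on at least 2 of 8 arrays were kept (23725, of which 19671 had 1 symbol), and the brightest stood for each of 11217 genes. Signals were used as deposited, as log2(signal + 32). limma 3.58.1 in R 4.3.3 fitted 1 mean per group over all 8 arrays (4 residual and 6.7 prior degrees of freedom), and p values were adjusted by Benjamini-Hochberg. An exact permutation test of 2 against 2 arrays cannot give a two-sided p below 0.333. The procedure was tested on simulated data. The named genes are the 15 largest called differences in each direction, the marker genes, and 5 tested members of each list. These 5 had the smallest limma p of their list, whether called or not. The 15 in each direction were taken among genes whose 2 groups of WT arrays did not overlap. All tested chemokine receptor, SLAM and granule genes were named too, as were some further markers of other cell types. Other genes are said to be chosen later. The members and all gene lists were chosen with earlier results of these data known. Members without a probe set of their own were not analysed here. The deviations of arrays of the same number correlated with r from -0.514 to 0.276 over the 6 pairs of groups (-0.23 between WT Tfh and WT Th1), and the labels give no shared animals, so the numbers were not taken to pair the arrays. Alternatives covered scaling, pseudocount, filter, probe sets, variance model, weights, a replicate block and each array left out. The small number of arrays limits the precision. Figures were drawn with matplotlib 3.10.9 in Python 3.11.15.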

Additional observations from a re-analysis of the deposited data

Results flagged for a closer look

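For 29 of the 142 named genes called in WT cells, the limma test of the difference between genotypes (Rictor-null minus WT of the Tfh minus Th1 difference, adjusted over all 11217 genes) gave an adjusted p under 0.05. These genes were named for WT differences from the same arrays, so their number is a description and is not compared with that of all genes. The value was positive, so that the lineage difference was less negative or more positive in Rictor-null cells, for Bst2 (1.403), Btg2 (0.9938), Ramp1 (0.8832), Ctsl (0.751), Ddit4 (0.6312), Il17ra (0.5874), Igfbp4 (0.5751), Prkcq (0.5703), Sostdc1 (0.5474), Treml2 (0.5246), Satb1 (0.5038), Ifitm1 (0.4658), Ltb (0.4647), Tnfsf14 (0.4425), Pim1 (0.4329) and Grap2 (0.4089). It was negative for Rb1cc1 (-1.605), Pik3cd (-1.143), Klre1 (-0.9317), Alcam (-0.7675), Gzma (-0.7468), Ahr (-0.7465), Klrg1 (-0.6202), Ccr9 (-0.6125), Socs2 (-0.5978), Tmem176b (-0.5947), Gzmb (-0.547), S1pr5 (-0.4994) and Ntn1 (-0.4411). The smallest adjusted p was that of Bst2 (0.000801) and the highest that of Rb1cc1 (0.0486), with Pik3cd at 0.0471. The values of Rb1cc1, Pik3cd and Ramp1 rest on a single probe set. In the WT difference none of their other probe sets had its sign. The difference between genotypes is not given here for those other probe sets. Igfbp4 and Sostdc1 kept their direction in both genotypes, with Igfbp4 at -1.64 in Rictor-null and -2.21 in WT cells. Ddit4 was at -0.05 in Rictor-null and -0.68 in WT cells, and Alcam at -0.09 in Rictor-null and 0.67 in WT cells. No group had more than 2 arrays, so single arrays were not tested as outliers.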

How the results depend on the processing

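The count of genes called in WT cells (1653) was 1007 after quantile normalization, 1076 with a filter at the 75th percentile, 1003 with a replicate block, 2592 in a fit of the 4 WT arrays only, 3175 with array weights and, chosen after seeing the data, 2725 with the replicate numbers crossed in the block. It ranged from 198 to 2678 when 1 array was left out. The Rictor-null count (1090) was 660 with array weights, 1764 with the crossed block and 397 to 1660 with 1 array left out. The count for the difference between genotypes (136) was 73 with a pseudocount of 1, 65 without a filter, 86 with the filter at the 75th percentile, 736 with the crossed block and 27 to 1614 with 1 array left out. The samples share only a number, and the block ended the call of 14 of the 142 named called genes. Of these 142, 75 lost the call without WT Tfh 1, 66 without WT Tfh 2, 60 without WT Th1 1, 40 without WT Th1 2, 30 after centring and 17 after quantile normalization. The difference of Prdx4 was -0.29 and turned to 0.01451 with the mean of its probe sets. Among 86 named genes not called, 33 gained a call in at least 1 alternative. The cause of these changes was not tested.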
